A study of Mus musculus with 23 samples.

Results

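Glul, Rlbp1, Slc1a3, Aqp4, Sox9, Apoa2, Vim, Gfap, Dkk3 and Clu, here called the glial transcripts, are 10 genes chosen by name to follow RNA of Müller glia and astrocytes through bulk RNA-seq of sorted retinal microglia. All 10 were among the 35825 genes listed, and all 10 passed the filter for low values (10 or more in 3 or more of 23 libraries), which left 17102 genes for testing. The cells were GFP+ cells sorted by FACS from retinas of CX3CR1-GFP mice, in which a Cx3cr1 allele drives GFP in microglia and other mononuclear phagocytes. Every library came from mice with this allele. CX3CR1-GFP mice (WT) were compared with Spp1 KO; CX3CR1-GFP mice (KO), which also carried a global knockout of Spp1, the gene for osteopontin. Retinas were labelled control, here called naïve, or were taken 4 weeks after elevation of intraocular pressure (IOP) with microbeads in the anterior chamber, or 7 days after optic nerve crush (ONC), done on a single nerve. The labels do not say whether control eyes were left uninjected. The study's methods give an injection of saline for control mice of the microbead model. There were 4 libraries each of WT naïve, WT IOP, KO naïve, KO IOP and KO ONC, and 3 of WT ONC. Retinas of several mice were pooled before dissociation, so p-values measure the spread between pools, and the age of the mice was not given in the sources used here.

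Müller glia are the radial glia that span the retina. They take up glutamate and turn it into glutamine, regenerate visual chromophore for cones, and move water and potassium between neurons and vessels. Astrocytes lie in the nerve fibre layer, and both cell types raise intermediate filament genes in gliosis, their response to injury. A bulk library does not say from which of the sorted cells a transcript came, and fewer cells of a type cannot be told apart from less RNA per cell.

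The libraries held 22180480 to 30296094 reads on genes. Spp1, the targeted gene, had normalized counts (read counts divided by a factor for the depth of each library) of 350.2, 53.1, 6.78 and 81.6 in the libraries labelled KO naïve, 25.5, 811, 9.28 and 761 in those labelled KO IOP and 4750.4, 6811, 15 and 6226 in those labelled KO ONC. In WT naïve, IOP and ONC libraries the values were 1228, 1518, 334 and 492, then 2353, 2409.8, 1343 and 2772, and then 14556.5, 16067 and 22905.5. Thus 6 of 12 libraries labelled KO lay at or above the lowest WT naïve library, namely naïve replicate 1, IOP replicates 2 and 4, and ONC replicates 1, 2 and 4. These 6 held the highest Spp1 of the libraries labelled KO. Against WT of the same condition, only KO naïve replicate 1 overlapped. Every KO IOP library lay below every WT IOP library, and every KO ONC library below every WT ONC library. Counts per gene do not separate a deleted exon from the rest of the transcript. Results that rest on the KO libraries are followed by what was left without these 6, and "KO" below means the label. All 10 microglia markers were above 0 in every group, at a summed 1.16% to 3.49% of all normalized counts per library. Cx3cr1, the gene that carries the GFP allele, stood apart in the libraries labelled KO IOP, at 1079, 1233, 1067 and 952 normalized counts against 26836, 54612, 51592 and 31626 in WT IOP and 9417, 23090.1, 26283 and 24661 in KO naïve libraries. Its log2 difference (the scale is given below) was -5.19 from WT IOP and -4.17 from KO naïve, and -3.71 in the difference of IOP responses (limma, adjusted p = 1.21e-08, 8.33e-07 and 0.000358). What set this level apart was not tested, and it goes with every comparison that uses KO IOP libraries. Lens markers made up 0.817, 0.171, 0.115 and 0.885% in the 4 WT IOP libraries and at most 0.011% in all others. Pigment epithelium markers made up 0.26, 0.0904, 0.00713 and 0.0926% in the 4 libraries labelled KO naïve and 0.00578% to 0.00833% in WT naïve. Genes of the Y chromosome were at 0.000367% to 0.000636% in the libraries labelled KO IOP, at 0.00532% to 0.0195% in WT IOP, and at 0.0155%, 0.0236%, 0.000701% and 0.0229% in KO naïve libraries. The mix of sexes and the KO IOP group cannot be told apart in any comparison with KO IOP. The 10 glial transcripts themselves summed to 0.0937% to 0.578% of a library.

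**Figure D1:**
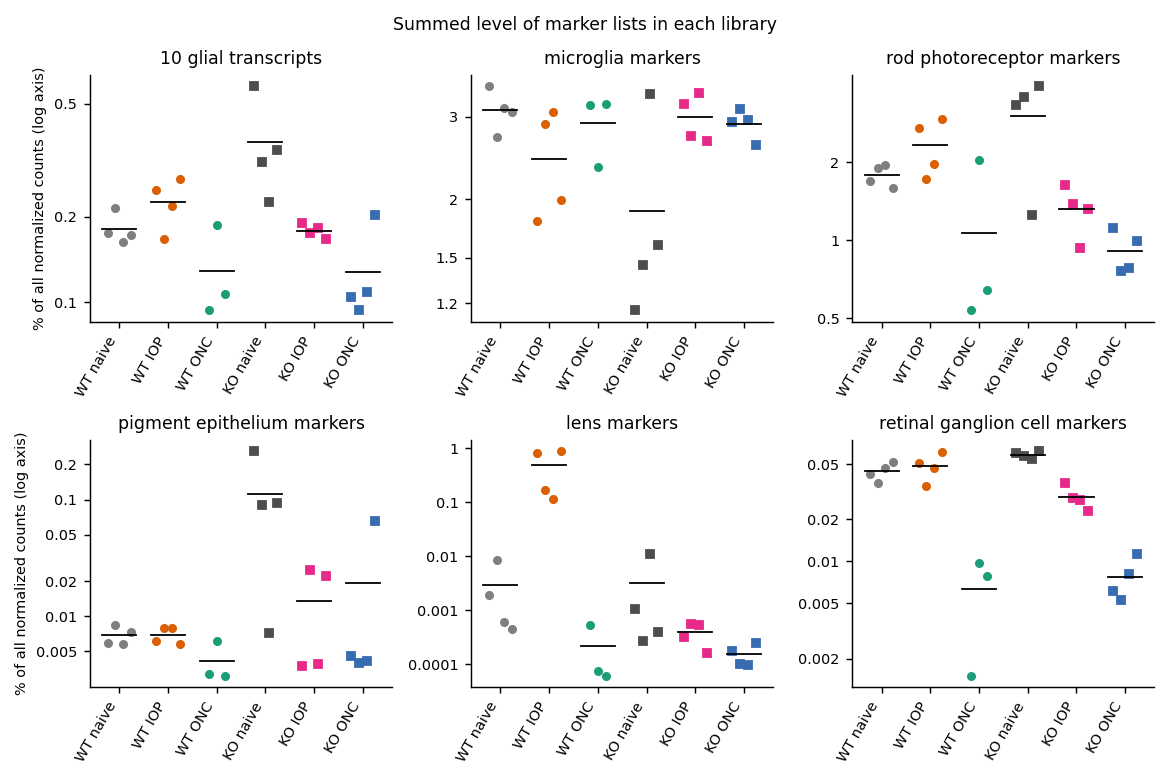
Summed level of the 10 glial transcripts and of 5 marker lists, as percent of all normalized counts (log axes), in each of 23 libraries by group. Points are libraries in replicate order and black lines are group means. Lens markers stand out in the 4 WT IOP libraries, and pigment epithelium markers in 3 of 4 libraries labelled KO naïve.

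Per kilobase of exon, so that genes can be compared with each other, the level in WT naïve libraries was highest for Glul, glutamine synthetase, at 4457 ± 185 normalized counts per kb (mean ± SD, n = 4), and for Dkk3, a secreted relative of the Dickkopf Wnt antagonists, at 4429 ± 1025. These levels overlapped. Rlbp1, the retinaldehyde-binding protein CRALBP, followed at 1919 ± 208 per kb, and Clu, the secreted chaperone clusterin, at 1715 ± 221, also with overlap between their spreads. Slc1a3, the glutamate transporter GLAST, was at 258 ± 48.1, Vim, the intermediate filament vimentin, at 175 ± 12.8, and Aqp4, the water channel of glial endfeet, at 141.5 ± 21.7, each overlapping the next in the range of its libraries. Gfap, the intermediate filament of astrocytes and reactive Müller glia, was at 64.8 ± 50.7 and the transcription factor Sox9 at 31.2 ± 24.7, with spreads that overlapped each other. Apoa2, an apolipoprotein of high-density lipoprotein, was at 8.92 ± 9.11 per kb. Its normalized counts were 0 to 26.5 over all 23 libraries, where 3 reads were worth 2.41 to 4.03. Such low counts limited the tests of Apoa2, which passed in no comparison by limma. By level, Glul and Dkk3 ranked 189 and 188 of 20965 genes with a mean above 0 in WT naïve libraries, and Gfap and Sox9 ranked 9450 and 11311.

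**Figure D2:**
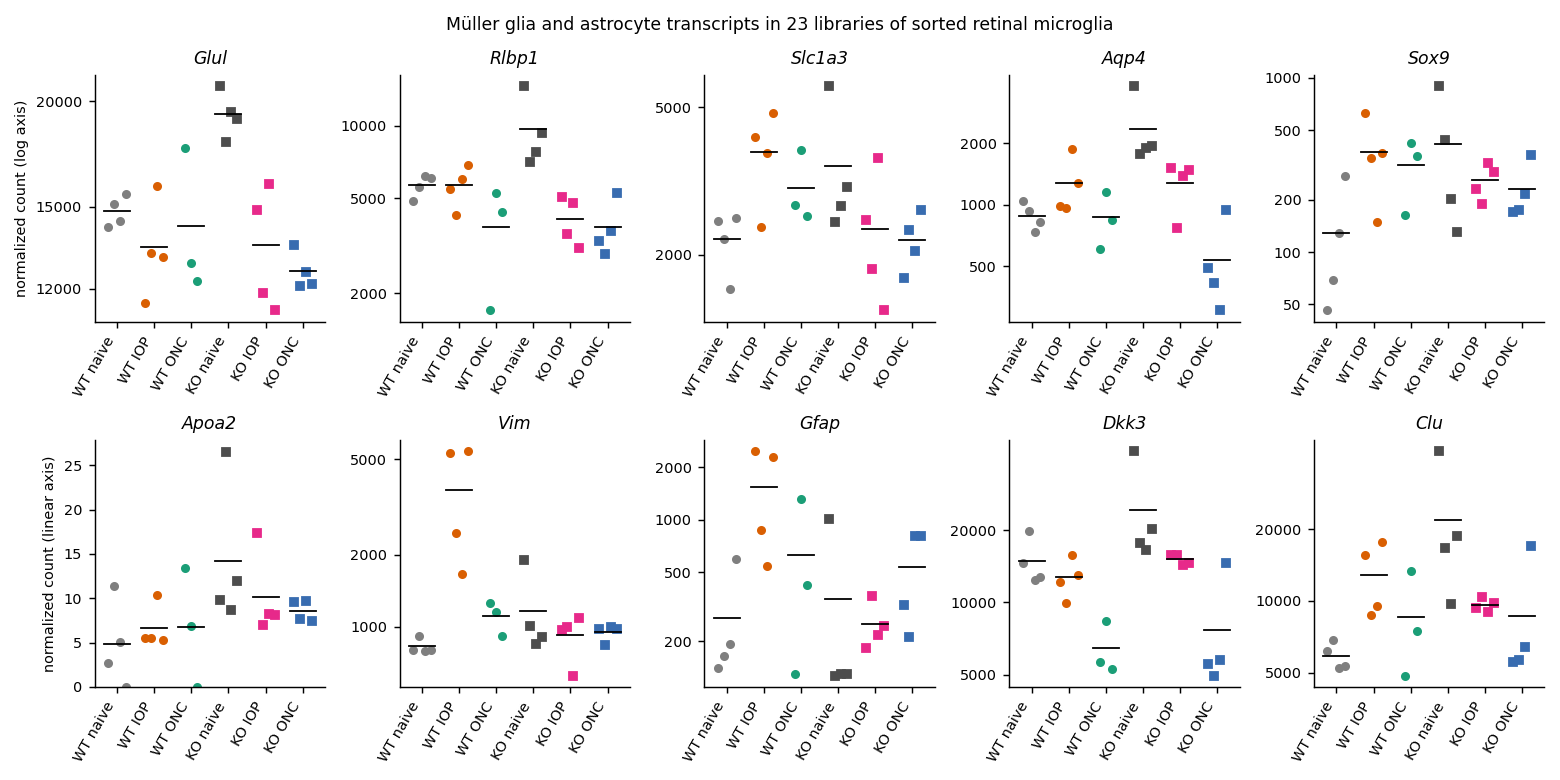
Normalized count of each of the 10 glial transcripts in 23 libraries (log axes, linear for Apoa2). Points are libraries in replicate order, circles WT and squares KO labels, and black lines are group means. Vim and Gfap are highest in WT IOP, and most of the other genes are highest in KO naïve replicate 1.

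Of the filament genes, Vim rose after IOP elevation in WT retinas, and Gfap had the higher fold but did not pass the test. Vim had normalized counts of 803, 919, 793 and 797 in WT naïve and 5336, 2456, 1656 and 5417 in WT IOP libraries. All 4 WT IOP libraries lay above all 4 naïve ones, with replicates 1 and 4 the highest of the group. On the log2(normalized count + 1) scale, on which all log2 fold changes below are given, Vim rose by 1.99 ± 0.31 SE, adjusted p = 0.00119 by limma. It was the only glial transcript past both thresholds (adjusted p under 0.05 and absolute log2 fold change over 0.58) in this comparison, in which 1.56% of all genes tested passed (0.842% higher). Gfap had 140.3, 166, 194 and 592 in WT naïve and 2469, 866, 542 and 2283 in WT IOP libraries. Its highest naïve library overlapped its lowest IOP library, and its log2 fold change of 2.48 ± 0.72 SE, adjusted p = 0.0945 did not pass by limma, while DESeq2 on recovered reads gave 2.50 (adjusted p = 0.0165). Clu also lay above naïve in all 4 WT IOP libraries, at 15585, 8765, 9552 and 17708 against 6146, 6856, 5230.4 and 5351, with a log2 fold change of 1.07 ± 0.39 SE, adjusted p = 0.204. So the groups did not overlap, in the higher direction, for 2 of 10 glial transcripts and for 6.75% of all genes. Slc1a3, at 4147, 2378, 3758 and 4824 against 2474, 2211, 1624 and 2514, and Sox9, at 628, 348, 149 and 369 against 46.2, 68.6, 128 and 273, overlapped and did not pass (log2 fold changes 0.75 ± 0.29 SE, adjusted p = 0.238 and 1.68 ± 0.57 SE, adjusted p = 0.166). Glul and Rlbp1, at log2 fold changes of -0.15 and -0.02, did not pass the test.

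Vim and Gfap in WT IOP libraries moved with lens markers. Replicates 1 and 4, with the highest Vim, Gfap and Clu of the group, were also those with lens shares of 0.817% and 0.885%, against 0.171% and 0.115% in replicates 2 and 3. Their microglia markers summed to 1.8% and 2%, against 2.89% and 3.06% in replicates 2 and 3. Rod markers were higher in replicates 1 and 4, at 2.71% and 2.93% against 1.72% and 1.96%. Cone, bipolar, retinal ganglion cell, endothelial and pericyte markers were higher there too. Amacrine cell markers overlapped, and pigment epithelium markers were lower, at 0.00617% and 0.00576% against 0.00788% and 0.00792%. In WT naïve libraries, of the 10 lens markers only Lim2 was at 0 in every library, and their summed share was 0.000445% to 0.00861%. Over 23 libraries, Pearson's r with the log2 lens share was 0.79 for Vim and 0.43 for Gfap, as a description over libraries that share groups. Vim is also a known filament of lens cells. Without replicates 1 and 4 the log2 fold change of Vim was 1.29 (adjusted p = 0.0807) and no longer passed. The part of lens RNA, or of RNA of the other cells named, in these values was not tested.

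**Figure D3:**
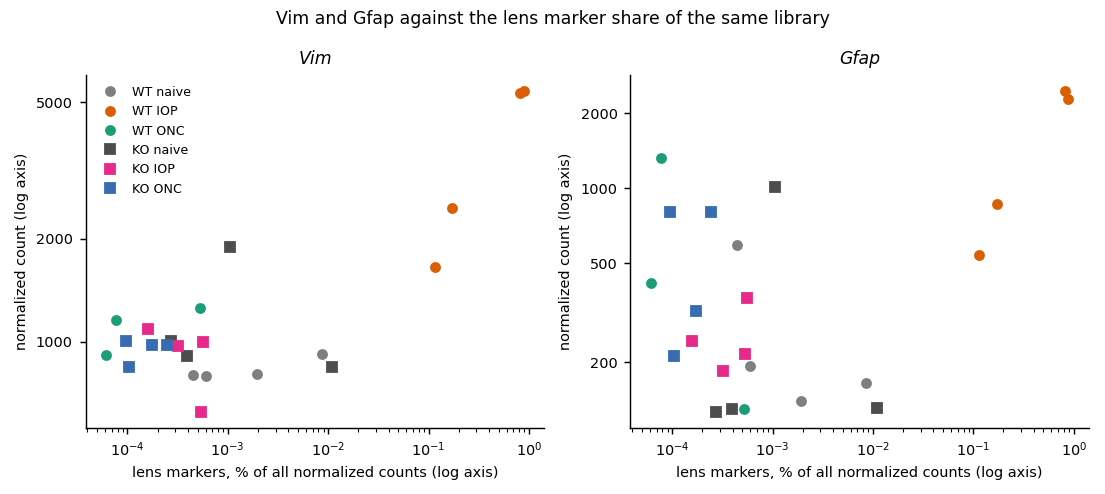
Normalized count of Vim and of Gfap (log axes) against the summed share of 10 lens markers in the same library (log axis), one point per library, 23 libraries in 6 groups. The 4 WT IOP libraries lie apart on the lens axis, at 0.115% to 0.885%, and the pair with the highest share has the highest Vim and Gfap.

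Other genes of gliosis rose in the same WT IOP libraries. The list of 22 such genes, which excludes the 10, was chosen with earlier results of these data known, so its counts are a description. Of these, 21 were tested, 19 had a positive log2 fold change, 6 rose past both thresholds and Tnc fell. The median log2 fold change was 1.97 against -0.02 over all genes tested. Fgf2, a neurotrophic growth factor, rose by 2.84 ± 0.41 SE, adjusted p = 0.00081, from 140.3, 129, 145 and 128 to 1323, 904, 480.0 and 1569 normalized counts. Lcn2, a siderophore-binding lipocalin of reactive astrocytes, had 24, 67, 138 and 10.2 in naïve and 3067, 787, 504 and 3565 in IOP libraries (log2 fold change 5.16 ± 1.26 SE, adjusted p = 0.0398). Serpina3n, a secreted protease inhibitor, had 261, 123, 56.6 and 20.4 and then 3037, 831, 611 and 2646 (log2 fold change 4.16 ± 0.99 SE, adjusted p = 0.0343). For each of these genes, named because they passed here, the 4 IOP libraries lay above the 4 naïve ones, as for 6.75% of all genes tested. Timp1, an inhibitor of metalloproteinases, had 5.33, 2.45, 7.6 and 0.929 normalized counts in naïve libraries, near the worth of 3 reads, and 565, 103, 118 and 606 in IOP libraries. Edn2, endothelin 2, was at 0 in 3 naïve libraries and at 9.81 in the fourth, against 569, 115, 139.6 and 495. Timp1 and Edn2 passed at adjusted p = 0.0177 and 0.000499, and no fold is given for them because the naïve level is at or near the floor. Mt2, a metallothionein, rose by 2.03 ± 0.48 SE, adjusted p = 0.0314. Tnc, an extracellular matrix glycoprotein, fell by 1.65 on the log2 scale (adjusted p = 0.00492).

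Of 20 other Müller glia genes, 18 had a positive log2 fold change in WT IOP against naïve and 2 passed. Kcnj10, the potassium channel Kir4.1 of Müller glia, had 158, 234, 160.5 and 177 in naïve and 565, 684, 426 and 689 in IOP libraries (log2 fold change 1.68 ± 0.32 SE, adjusted p = 0.00669), and Cav1, the membrane scaffold caveolin 1, rose by 1.51 ± 0.32 SE, adjusted p = 0.0163. Of 8 other astrocyte genes tested, 0 passed by limma (1 at an unadjusted p under 0.05), 0 by edgeR and 0 by DESeq2. Without WT IOP replicates 1 and 4, none of the 9 called genes of these lists passed, with log2 fold changes for Fgf2 of 2.27 (adjusted p = 0.0807), Kcnj10 of 1.58, Lcn2 of 3.97, Serpina3n of 3.17, Cav1 of 1.13 and Mt2 of 1.19, and Edn2 at adjusted p = 0.0534. Over all genes, 15 in place of 267 passed in that fit, which has 2 WT IOP libraries. With any of the 8 libraries left out, Fgf2, Edn2, Kcnj10 and Tnc stayed past the thresholds, while Serpina3n, Lcn2, Timp1, Mt2 and Cav1 each lost the call in at least 4 of 8 such fits.

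**Figure D4:**
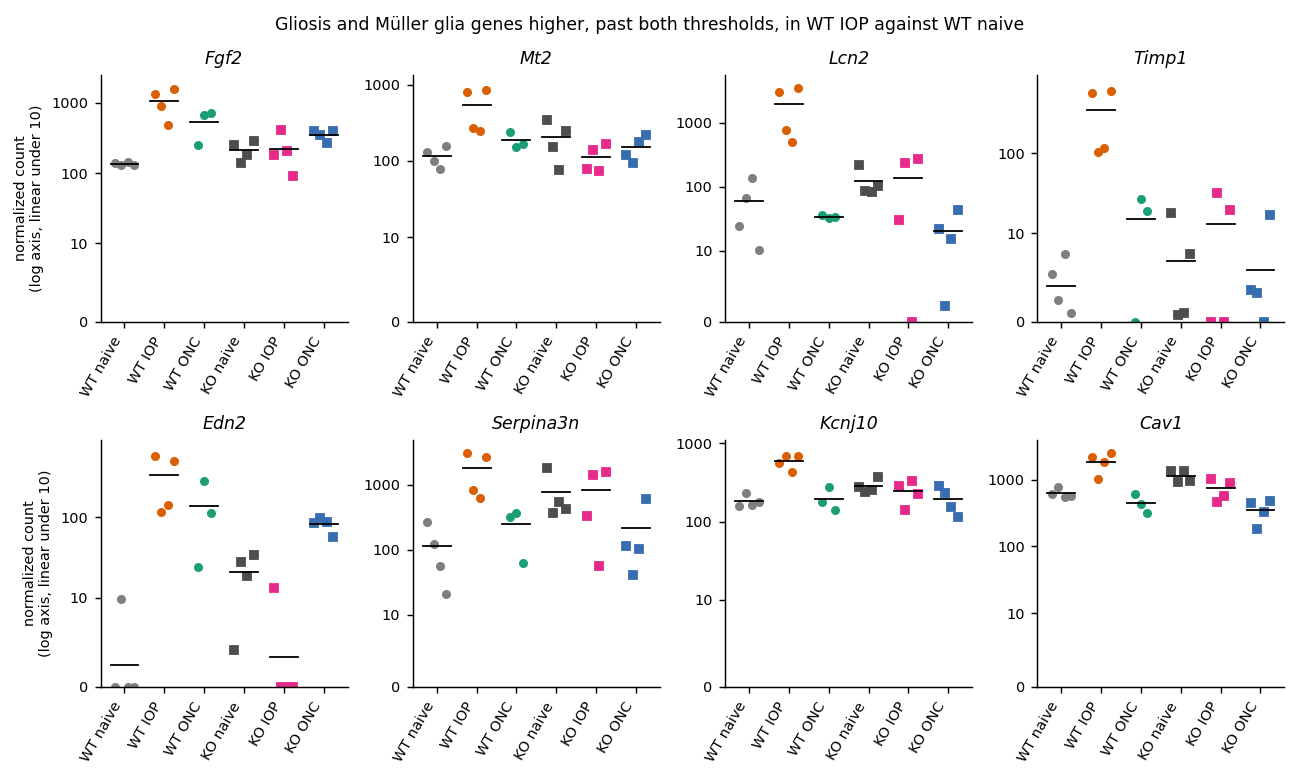
Normalized count (log axes, linear under 10) of 6 gliosis genes and 2 Müller glia genes, Kcnj10 and Cav1, that rose in WT IOP against WT naïve, in 23 libraries by group. Points are libraries in replicate order and black lines are group means. In each panel the 4 WT IOP libraries lie above the 4 WT naïve libraries. The genes were chosen by passing as higher in this same comparison, so the separation is no added support.

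The promoters of Gfap and Slc1a3 are shown because they were the only ones of the 6 glial transcripts with a searched RefSeq promoter window (250 bases before to 50 after the start, GRCm38.p6, 7 windows) in which the letters TTCNNNGAA were found. These letters, read on both strands since they are their own reverse complement, are those bound by STAT factors such as STAT3, a known activator of Gfap in reactive glia. They are in capitals below, in 100 bases before and 10 after the start, each 5′ to 3′ on the minus strand. The Gfap stretch lies at chr11:102897191-102897300, in GENCODE M21 within an intron of a longer Gfap transcript and inside the span of the lincRNA Gm26668 on the other strand, and the match begins 2 bases before the start and runs across it. The Slc1a3 stretch lies at chr15:8710798-8710907, beyond the 5′ end of Slc1a3 in GENCODE M21, and its match begins 96 bases before the start.
Gfap: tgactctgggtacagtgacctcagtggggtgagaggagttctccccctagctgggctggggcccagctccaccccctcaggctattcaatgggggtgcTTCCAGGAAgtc
Slc1a3: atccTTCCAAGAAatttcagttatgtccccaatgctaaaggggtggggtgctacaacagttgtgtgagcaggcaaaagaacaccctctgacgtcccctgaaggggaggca
The same letters stood in 8.33% of 32544 windows of this length. The windows of Glul, Rlbp1, Apoa2 and Vim did not hold them, and 3 other strings, TGANTCA (AP-1), AACAATGG (SOX factors) and CACGTG, were in none of the windows, against 7.79%, 1.06% and 7.17% of all windows. A match is a description of letters and not of binding.

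After IOP elevation, the libraries labelled KO had less Vim than WT libraries. Vim had 974, 1001, 625 and 1087 normalized counts in KO IOP against 5336, 2456, 1656 and 5417 in WT IOP libraries, with no overlap, and had a log2 fold change of -1.87 ± 0.31 SE, adjusted p = 0.00209. It was 1 of 10 glial transcripts past both thresholds, where 2.11% of all genes passed (1.64% lower). Gfap had 184, 363, 217 and 244 in KO IOP libraries, all below the 4 WT IOP libraries, and a log2 fold change of -2.38 ± 0.72 SE, adjusted p = 0.081, which did not pass by limma. DESeq2 gave -2.61 (adjusted p = 0.00967). Thus the groups did not overlap, in the lower direction, for 2 of 10 glial transcripts and for 7.86% of all genes. For Glul and Aqp4 the log2 fold changes were 0.00 and 0.02, and for Slc1a3 -0.73, none of them past the test. Vim kept its call without the 6 KO libraries of highest Spp1, KO IOP replicates 2 and 4 among them, at -2.08 (adjusted p = 0.0204). It lost the call without the 2 WT IOP libraries of highest lens share, at -1.16 (adjusted p = 0.151), where 29 in place of 360 genes passed, and when only the 8 libraries compared were fitted (adjusted p = 0.0536).

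Of the 21 other gliosis genes tested, 5 were lower in KO IOP than in WT IOP libraries and 0 higher. Fgf2 had a log2 fold change of -2.34 ± 0.41 SE, adjusted p = 0.00395, at 181, 403, 205 and 89.9 normalized counts in KO IOP. Lcn2, at 30.5, 235, 0 and 274, had a log2 fold change of -5.26 ± 1.26 SE, adjusted p = 0.0304, and Mt2 of -2.11 ± 0.48 SE, adjusted p = 0.0227. Timp1 was at 0 in 2 KO IOP libraries (replicates 1 and 3) and at 32.1 and 19.2 in the others (adjusted p = 0.0216), and Edn2 was at 0 in 3 and at 13.2 in the fourth (adjusted p = 0.000282). Of 20 other Müller glia genes, 4 were lower: Kcnj10 at -1.30 ± 0.32 SE, adjusted p = 0.0334, Cav1 at -1.33 ± 0.32 SE, adjusted p = 0.0317, Dbi, an acyl-CoA binding protein, at -0.94 ± 0.22 SE, adjusted p = 0.0248, and the transcription factor Sox2, which was at 0 in 2 KO IOP libraries (adjusted p = 0.0149). The median log2 fold change was -1.01 over the gliosis genes, -0.40 over the Müller glia genes and -0.03 over all genes tested. Lens markers were lower too, with 9 of 9 tested past the thresholds. Of these 9 gliosis and Müller glia genes, Lcn2, Timp1, Edn2 and Fgf2 kept the call without the 6 KO libraries of highest Spp1. Edn2 alone kept it without the 2 WT IOP libraries. With the rod covariate 0 Müller glia and 2 gliosis genes passed, and with the compared groups alone 0 and 1. Over all genes, 156 passed with the rod covariate and 229 with the compared groups alone, in place of 360. With a single library left out, the number of Müller glia genes past the thresholds was 0 without WT IOP replicate 1 or 4 or KO IOP replicate 2, 1 without KO IOP replicate 3, 2 without KO IOP replicate 4 and 3 otherwise, and that of gliosis genes was 2 without WT IOP replicate 1 or 4 or KO IOP replicate 1 or 3 and 5 otherwise.

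In naïve retinas, no glial transcript passed the test between the labels. Of the 10, 9 had a positive log2 fold change, 0 passed by limma (6 at an unadjusted p under 0.05), 0 by edgeR and 2 by DESeq2, and 0.409% of all genes passed. Aqp4 had 1044, 931, 732 and 821 normalized counts in WT naïve and 3839, 1773, 1909 and 1939 in KO naïve libraries, a log2 fold change of 1.36 ± 0.32 SE, adjusted p = 0.0562. Clu had 6146, 6856, 5230.4 and 5351 and 42452, 16668, 9704 and 18676, a log2 fold change of 1.69 ± 0.39 SE, adjusted p = 0.0562. Glul, at 14186, 15098, 14428 and 15524.5 against 20857, 17891, 19409 and 19068, differed by 0.38 ± 0.14 SE, adjusted p = 0.19, and Rlbp1, at 4841, 5573, 6189.8 and 6073 against 14704, 7094, 7782 and 9296, by 0.72 ± 0.29 SE, adjusted p = 0.22. For these 4 of 10 genes every KO naïve library lay above every WT naïve library, as for 4.3% of all genes. DESeq2 called Aqp4 (1.42, adjusted p = 0.00499) and Clu (1.89, adjusted p = 0.00106).

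KO naïve replicate 1 held the highest value of all 23 libraries for 7 of 10 glial transcripts, the exceptions being Vim and Gfap, highest in WT IOP, and Apoa2. Its Dkk3 was 42809 and its Clu 42452, against at most 20204 and 18676 in the other KO naïve libraries. Without it and with the same WT libraries, the log2 fold change of Aqp4 was 1.10 (adjusted p = 0.202) and that of Clu 1.30 (adjusted p = 0.189). Without KO naïve replicate 3, in contrast, both passed, Aqp4 at 1.43 (adjusted p = 0.0127) and Clu at 2.01 (adjusted p = 0.00193), as did 8 of the other Müller glia genes below. Markers of other cells moved with it. KO naïve replicates 1, 2 and 4 had rod photoreceptor shares of 3.32%, 3.54% and 3.93% against 1.25% in replicate 3 and 1.58% to 1.94% in WT naïve, and microglia shares of 1.16%, 1.45% and 1.6% against 3.35% in replicate 3. Their pigment epithelium shares were 0.26%, 0.0904% and 0.0926% against 0.00713% in replicate 3. Rlbp1 is also known from pigment epithelium. The part of these cells in the naïve values was not tested. Of 20 other Müller glia genes, 19 had a positive log2 fold change and 0 passed by limma (9 at an unadjusted p under 0.05), 0 by edgeR and 7 by DESeq2, at a median of 1.04 against 0.03 over all genes, and of 8 other astrocyte genes tested 8 were positive and 0 passed by limma (1 at an unadjusted p under 0.05), edgeR or DESeq2. Among the gliosis genes, Ednrb, an endothelin receptor, was lower in KO naïve libraries, at a log2 fold change of -2.28 ± 0.43 SE, adjusted p = 0.0224. It did not pass without KO naïve replicate 2 or 4, or without any single WT naïve library (adjusted p = 0.054 to 0.133), or without the 6 KO libraries of highest Spp1 (adjusted p = 0.102).

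At 7 days after ONC, glial transcripts of the resting state fell in the libraries labelled KO. Aqp4 had 489.6, 412, 303 and 942 normalized counts in KO ONC against 3839, 1773, 1909 and 1939 in KO naïve libraries with a log2 fold change of -2.19 ± 0.32 SE, adjusted p = 7.85e-05. Dkk3, at 5521, 4946, 5749.8 and 14614 against 42808.5, 17637, 16616 and 20203.5, changed by -1.70 ± 0.30 SE, adjusted p = 0.000442, and Rlbp1, at 3322, 2915, 3631 and 5265 against 14704, 7094, 7782 and 9296, by -1.34 ± 0.29 SE, adjusted p = 0.00203. Glul, at 13512, 12089.8, 12543 and 12159, changed by -0.62 ± 0.14 SE, adjusted p = 0.00361. For these 4 genes all KO ONC libraries lay below all KO naïve libraries, as for 13.1% of all genes. Clu, at 5549, 5654, 6421 and 17044, overlapped the naïve values through ONC replicate 4 and changed by -1.31 ± 0.39 SE, adjusted p = 0.0172. So 5 of 10 glial transcripts fell and 0 rose, in a comparison in which 23.6% of all genes passed (11% lower). Slc1a3, Sox9, Vim and Gfap did not pass, at log2 fold changes of -0.60, -0.54, -0.22 and 1.08. The difference between the filament genes and the resting genes was not tested.

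Of 20 other Müller glia genes, 18 had a negative log2 fold change in KO ONC against KO naïve and 12 fell past both thresholds. Among them were Mlc1, a membrane protein of glial endfeet (-1.96 ± 0.33 SE, adjusted p = 0.000225), Gpr37, a G protein-coupled receptor (-2.01 ± 0.33 SE, adjusted p = 0.000232), Cav1 (-1.76 ± 0.32 SE, adjusted p = 0.000521), and Sox8, a transcription factor (-1.78 ± 0.31 SE, adjusted p = 0.000337). Slc1a2, the glutamate transporter GLT-1, was the 1 of 8 astrocyte genes tested that fell (-1.55 ± 0.39 SE, adjusted p = 0.00601). Of 21 gliosis genes, Socs3, a feedback inhibitor of STAT signalling, rose by 1.99 ± 0.27 SE, adjusted p = 3.68e-05 and Nes, the filament nestin, by 1.78 ± 0.41 SE, adjusted p = 0.00335, while S1pr3 and Steap4 fell. With the rod covariate 2 of the 12 Müller glia genes, Gpr37 and Cav1, and 1 gliosis gene, Socs3, kept the call. Over all genes, 481 in place of 4043 passed with that covariate. Without the 6 KO libraries of highest Spp1, 1 KO ONC library was left, so the spread in that group could not be measured. The log2 fold changes in that fit were -3.74 for Cspg5, -2.39 for Gpr37, -2.81 for S1pr3 and 1.96 for Socs3. Mlc1 was at -1.85, Cav1 at -1.71, Sox8 at -1.69, Slc1a2 at -1.38 and Nes at 2.20. Over all genes, 190 in place of 4043 passed in that fit. Rod markers fell as well, with 12 of 14 past the thresholds, and pigment epithelium markers were at 0.00397% to 0.065% against 0.00713% to 0.26%. Also past the thresholds and lower were 7 of 8 cone, 6 of 9 bipolar, 5 of 8 amacrine and 6 of 9 retinal ganglion cell markers, while 6 of 10 microglia markers rose. The part of these cells in the glial values was not tested. With the rod markers of each library as a covariate, Aqp4 kept its call at -1.91 (adjusted p = 0.0172) and so did Glul at -0.75 (adjusted p = 0.0154), while Dkk3 was at -1.34 (adjusted p = 0.0705), Rlbp1 at -0.85 (adjusted p = 0.253) and Clu at -0.38 (adjusted p = 0.764). Without the 6 KO libraries of highest Spp1, which leaves 1 KO ONC library assumed to vary like the other groups, Aqp4 was at -2.62 and Dkk3 at -1.65. Glul lost the call without KO naïve replicate 1 (-0.58, adjusted p = 0.0148). Clu lost it without that library (-0.92, adjusted p = 0.0793) or without KO ONC replicate 1, 2 or 3 (adjusted p = 0.0567, 0.063 and 0.051).

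In WT retinas after ONC, Dkk3 was the 1 of 10 glial transcripts past both thresholds, where 18.1% of all genes passed (10.5% lower). Its normalized counts were 5629, 8397 and 5301 in WT ONC against 14579.7, 19835, 12385.5 and 12711 in WT naïve libraries, with no overlap, and it had a log2 fold change of -1.21 ± 0.33 SE, adjusted p = 0.0135. It lost the call without WT ONC replicate 1 (-1.13, adjusted p = 0.0692) or 3 (-1.09, adjusted p = 0.0616), and with the rod covariate (adjusted p = 0.0692). Without WT ONC replicate 2 or WT naïve replicate 4, 2 glial transcripts passed. Slc1a3 lay above naïve in all 3 WT ONC libraries, at 2724, 3825 and 2541 against 2474, 2211, 1624 and 2514, without passing (0.46 ± 0.31 SE, adjusted p = 0.314). Non-overlap in the lower direction held for 1 of 10 glial transcripts and 14.3% of all genes, and in the higher direction for 1 of 10 and 12.1%. Gfap was at 130.2, 1319 and 419, so that its 3 libraries spanned more than the naïve group, and its log2 fold change was 0.87 ± 0.78 SE, adjusted p = 0.457. Sox9 was at 164, 423 and 358 and Aqp4 at 608, 1153 and 842, both overlapping the naïve libraries. Rlbp1 was at 1696, 5257 and 4361, lowest in replicate 1. That library also had the lowest rod share of the 3, 0.537% against 2.03% and 0.644%. Markers of other cells fell past the thresholds in WT ONC against naïve, with 6 of 8 for amacrine cells, 7 of 9 for retinal ganglion cells and 3 of 14 for rods. For cones it was 0 of 8 and for bipolar cells 0 of 9. The part of these cells in the Dkk3 values was not tested.

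Of the 21 other gliosis genes, 5 rose in WT ONC and 2 fell, where 1292 of all 17102 genes tested rose and 1801 fell. Nes rose by 2.18 ± 0.44 SE, adjusted p = 0.00169, Fgf2 by 1.84 ± 0.45 SE, adjusted p = 0.00676 and Socs3 by 1.13 ± 0.30 SE, adjusted p = 0.011, and Cebpd, a transcription factor of the acute phase response, had 385, 452 and 745 normalized counts against 29.3, 13.9, 27 and 60.4 (adjusted p = 0.0252). Edn2 was at 24.2, 281 and 111 (adjusted p = 0.000777). Tnc, at 133, 208 and 161 against 1639 or more in WT naïve libraries, and Ednrb, at 52.3, 152 and 69 against 1106, 922, 857 and 1287, had log2 fold changes of -3.60 ± 0.33 SE, adjusted p = 8.60e-07 and -3.64 ± 0.46 SE, adjusted p = 1.82e-05. Of the other Müller glia genes 1 of 20 passed, Aldoc, a glycolytic aldolase, which fell (-1.22 ± 0.29 SE, adjusted p = 0.00617), with 0 passing without WT ONC replicate 1 and 6 without replicate 2, and of the 8 astrocyte genes Gja1, the gap junction protein connexin 43, at 8.05, 115 and 50.3 against 1051, 2798, 350.5 and 341 (adjusted p = 0.021). With each of the 7 WT libraries left out in turn, the call was kept in 3 of 7 fits for Cebpd. Socs3 and Gja1 kept it in 5 and Aldoc in 6. Nes, Fgf2, Edn2, Tnc and Ednrb kept it in all 7. Between genotypes after ONC, 0 of 10 glial transcripts passed by limma (1, Aqp4, at an unadjusted p under 0.05), 0 by edgeR and 0 by DESeq2, where 0.0877% of all genes passed by limma. Aqp4, Slc1a3 and Sox9 had log2 fold changes of -0.77, -0.46 and -0.41. Tnc was the 1 gliosis gene that differed, higher in KO ONC by 2.07 ± 0.33 SE, adjusted p = 0.0063. It did not pass without WT ONC replicate 1 (1.92, adjusted p = 0.0726) or with the compared groups alone (adjusted p = 0.827). Without the 6 KO libraries of highest Spp1, which leaves 1 KO ONC library, the log2 fold change of Tnc was 2.24.

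In libraries labelled KO, Rlbp1 was the 1 glial transcript that fell after IOP elevation. It had 5025, 3552, 4748 and 3086 normalized counts in KO IOP against 14704, 7094, 7782 and 9296 in KO naïve libraries with a log2 fold change of -1.21 ± 0.29 SE, adjusted p = 0.0214. This was 1 of 10 past both thresholds, where 7.88% of all genes passed (2.81% lower). Glul, at 14859.9, 11853, 15978 and 11307, had an adjusted p under 0.05 but a change under the fold threshold (-0.53 ± 0.14 SE, adjusted p = 0.0322). Rlbp1, Glul, Aqp4 and Dkk3 did not overlap between the groups, all lower in KO IOP, as for 6.29% of all genes. Aqp4, at 1516, 774, 1377 and 1476, and Dkk3, at 15803, 15811, 14349 and 14611, differed by -0.85 and -0.57 without passing. Vim and Gfap did not pass, at -0.29 ± 0.31 SE, adjusted p = 0.572 and 0.17 ± 0.72 SE, adjusted p = 0.898. The Rlbp1 call was lost without KO naïve replicate 1 (adjusted p = 0.0727), 2 (0.0538) or 4 (0.0748) and without KO IOP replicate 2 (0.0508) or 4 (0.0513). It was also lost with the rod covariate (-0.86, adjusted p = 0.371) and without the KO libraries of highest Spp1 (-0.71, adjusted p = 0.329). Over all genes, 6 passed with the rod covariate and 5 with the compared groups alone, in place of 1347. Nearly every gene thus lost its call in those fits. Markers of other cells moved in the same comparison, with 14 of 14 rod markers lower (2 past the thresholds), 8 of 10 pigment epithelium markers lower (1 past) and 9 of 10 microglia markers higher (4 past), and 4 of 4 Y chromosome genes fell. The part of these in the values was not tested. Of the other lists, Slc1a2 fell among the astrocyte genes (-1.28 ± 0.39 SE, adjusted p = 0.0461), Socs3 rose among the gliosis genes (1.89 ± 0.27 SE, adjusted p = 0.00193), Edn2 fell (adjusted p = 0.0484), and 0 of 20 Müller glia genes passed by limma (12 at an unadjusted p under 0.05), 0 by edgeR and 3 by DESeq2. None of Slc1a2, Socs3 and Edn2 passed without the 6 KO libraries of highest Spp1, or with the rod covariate or the compared groups alone.

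The response to IOP elevation differed between the labels for 3 glial transcripts, tested as the difference of the log2 fold changes (KO minus WT). It was -2.28 ± 0.43 SE, adjusted p = 0.00582 for Vim, -2.05 ± 0.55 SE, adjusted p = 0.0254 for Clu and -1.32 ± 0.40 SE, adjusted p = 0.044 for Slc1a3, with 8.75% of all genes past both thresholds (3.9% lower). All 10 differences were negative, at a median of -1.33 against -0.08 over all genes tested. Markers of most other retinal cells, and of lens, also had negative differences. These were 14 of 14 for rods (median -1.34), 8 of 8 for cones, 9 of 9 for bipolar cells (-1.14), 9 of 9 for retinal ganglion cells (-1.94) and 9 of 9 for lens (-8.98). Microglia markers had positive ones in 9 of 10 (median 1.44), and amacrine cell markers in 7 of 8 (median 0.73). The part of these cells in the glial values was not tested. These comparisons share their libraries, so the WT IOP and KO naïve libraries described above enter each difference. For Clu, the values were 6146, 6856, 5230.4 and 5351 to 15585, 8765, 9552 and 17708 in WT and 42452, 16668, 9704 and 18676 to 9326, 10343, 8968 and 9785 in KO libraries, with log2 fold changes of 1.07 in WT and -0.98 in KO. Slc1a3 in KO libraries was at 5703, 2452, 2713 and 3051 naïve and 2483, 1828, 3656 and 1419 after IOP elevation, with log2 fold changes of 0.75 in WT and -0.57 in KO. For Vim they were 1.99 in WT and -0.29 in KO. Slc1a3 kept its call in 3 of 16 fits that each left out 1 library, without WT IOP replicate 2 or KO naïve or IOP replicate 3. Clu lost it without WT naïve replicate 4 (0.0503), WT IOP replicate 1 (0.0621) or 4 (0.064), or KO naïve replicate 4 (0.0501; adjusted p each). Without the 2 WT IOP libraries of highest lens share the difference was -1.57 (adjusted p = 0.0626) for Vim, -1.62 (adjusted p = 0.219) for Clu and -1.03 (adjusted p = 0.296) for Slc1a3. Without the 6 KO libraries of highest Spp1 it was -2.23 (adjusted p = 0.0512), -1.73 (adjusted p = 0.0996) and -0.61 (adjusted p = 0.38), in the same order. Of the other lists, 8 of 20 Müller glia genes and 8 of 21 gliosis genes had a lower response in KO, Socs3 a higher one, and 0 of 8 astrocyte genes passed by limma (4 at an unadjusted p under 0.05), edgeR or DESeq2. With the rod covariate 0 Müller glia and 1 gliosis gene passed, without the 2 WT IOP libraries 0 and 1, and without the 6 KO libraries 0 and 3, while with the compared groups alone 12 and 9 passed. Over all genes, 150 passed with the rod covariate, 62 without the 2 WT IOP libraries and 1903 with the compared groups alone, in place of 1496. The 9 gliosis genes became 2 without WT IOP replicate 1 or 4, 3 without WT naïve replicate 4, and 5 to 9 without any other single library. For the response to ONC, 0 of 10 glial transcripts passed by limma (5 at an unadjusted p under 0.05), 0 by edgeR and 1 by DESeq2, where 0.0702% of all genes passed by limma. Without KO naïve replicate 3, 2 glial transcripts passed. Aqp4 came nearest, at -2.13 ± 0.48 SE, adjusted p = 0.0809, and Tnc was the gliosis gene that passed (2.91 ± 0.44 SE, adjusted p = 0.00832), though not without the 6 KO libraries (adjusted p = 0.165).

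**Figure D5:**
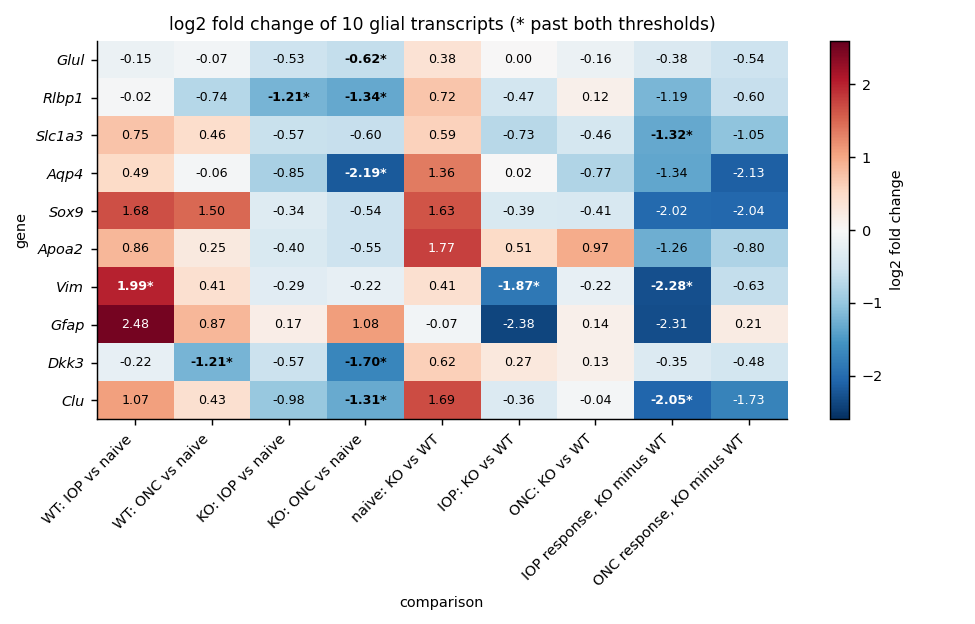
log2 fold change of the 10 glial transcripts in 9 comparisons, by limma on log2(normalized count + 1). Red is higher, blue lower, and an asterisk marks values past both thresholds. The 12 marked values lie in Vim for IOP elevation, in Rlbp1 for KO IOP, in Dkk3, Glul, Rlbp1, Aqp4 and Clu after ONC, and in the difference of the IOP responses.

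Among themselves, the glial transcripts fell into patterns over the 23 libraries, given as a description because libraries of a group share their condition. Aqp4 and Dkk3 had Pearson's r = 0.83, Rlbp1 and Dkk3 0.77, and Rlbp1 and Aqp4 0.74. Vim and Gfap had r = 0.74, and Glul and Gfap -0.42. The genes most like the mean of Glul, Rlbp1, Slc1a3, Aqp4, Sox9 and Dkk3 were Ndrg2, Mlc1, Ablim1, Abca8a and Spon1 (r = 0.909, 0.907, 0.889, 0.879 and 0.875). Those most like Vim were S100a11, Dbi and Cryab (r = 0.940, 0.935 and 0.929), of which Cryab, a small heat shock protein, is abundant in lens, and those most like Gfap were Cnnm4, Parp3 and Gadd45b (r = 0.765, 0.752 and 0.752). The spread between replicates also differed by gene. The residual SD on the log2 scale was 0.17 for Glul, 0.43 to 0.60 for Rlbp1, Slc1a3, Aqp4, Vim, Dkk3 and Clu, 0.86 for Sox9, 1.03 for Apoa2 and 1.12 for Gfap.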

How the data were processed

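RNA of FACS-sorted GFP+ retinal cells was sequenced in 23 libraries. The values the authors deposited are normalized read counts, a signal in which the read count of each gene was divided by a size factor per library. The study's methods name salmon, DESeq2 and GRCm38, and the submitters' processing notes name STAR and DESeq2. Versions were not given in the sources used here. In all 23 libraries every value was a whole multiple of a single read (tolerance 0.01), so 100% of values gave back reads. In 2 of them, KO IOP replicates 2 and 4, that step was within 1% of 1 and is less secure. Gene symbols came from GENCODE M21 (35436 of 35825 identifiers matched).

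limma 3.58.1 (R 4.3.3) was fitted to log2(normalized count + 1) of 17102 genes (10 or more in 3 or more libraries), with 6 groups, no covariate and an intensity trend, since these values are not raw counts. Adjusted p is Benjamini-Hochberg over all genes tested, and a gene passed at an adjusted p under 0.05 with an absolute log2 fold change over 0.58. The tests were two-sided. The count models edgeR 4.0.16 and DESeq2 1.42.0 were run on the recovered reads as alternatives. Over all genes, edgeR called 250 and DESeq2 940 genes for KO against WT IOP, against 360 by limma. The other alternatives were pseudocounts of 0.5 and 5, no filter, quantile normalization, upper-quartile rescaling, a block for replicate number, the compared groups alone, rod markers as a covariate, and each library left out. Leaving out the 2 WT IOP libraries of highest lens share, and the 6 KO libraries whose Spp1 was at or above the lowest WT naïve library, was chosen after seeing the data. Groups came from the labels. The fits were tested on simulated data, with 200 of 17102 genes changed for KO against WT IOP. Of 100 genes changed by a log2 of 1 and 100 by a log2 of 2, limma recovered 23 and 59, with 6 false calls. Recovery was 23 and 57 by edgeR, with 3 false calls, and 38 and 68 by DESeq2, with 32. In a comparison without changes DESeq2 made 10 false calls. A gene that did not pass may therefore still have changed.

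The 10 genes and all lists were chosen with earlier results of these data known. Genes named were the 10, members of the other Müller glia, astrocyte and gliosis lists that passed in the comparison described, Spp1, markers of other cells that moved with a result, and the genes most correlated with 3 patterns among those with a mean of at least 50. Replicates correlated at Pearson's r of 0.876 to 0.956, and 0 library pairs were identical. Reads covered 22180480 to 30296094 per library, and limits given as reads cover counting error only. Promoter sequences are from RefSeq (GRCm38.p6).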

Additional observations from a re-analysis of the deposited data

Results flagged for a closer look

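Each of the 10 genes was examined in each group of 4 libraries, which made 50 sets of 4 normalized counts. In 11 of 50 sets, 1 library stood apart from the other 3 by Dixon's ratio at its 95% critical value. Chance gives about 1 in 20 for independent, normally distributed sets. These sets share libraries and are counts, so that rate does not apply to them directly. KO naïve replicate 1 was the high library for Aqp4 (3839 normalized counts), Vim (1894), Gfap (1009.9) and Dkk3 (42809). KO ONC replicate 4 was the high library for Dkk3 (14614) and Clu (17044), and it had the highest pigment epithelium share of its group, 0.065%. The others were Vim in WT naïve replicate 2 (919) and, as the low library, KO ONC replicate 2 (843), Gfap in WT naïve replicate 4 (592.5), and Apoa2 in WT IOP replicate 3 (10.4) and KO IOP replicate 1 (17.3).

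The response to IOP elevation differed between KO and WT labels (difference of log2 fold changes, KO minus WT, by limma) for Slc1a3 (-1.32), Vim (-2.28) and Clu (-2.05). Among other Müller glia genes it differed for Abca8a (-2.10), Cav1 (-2.20), Dbi (-1.17), Hes1 (-2.76), Kcnj10 (-1.95), Lhx2 (-4.37), Mlc1 (-1.87) and Sox2 (-5.69). Among gliosis genes it differed for Serpina3n (-4.64), Lcn2 (-6.75), S1pr3 (-2.18), Timp1 (-5.82), Osmr (-3.57), Edn2 (-10.35), Fgf2 (-2.93), Mt2 (-2.75) and, in the other direction, Socs3 (1.33). Values of Edn2, Timp1, Lcn2 and Sox2 rest on libraries at 0 and depend on the pseudocount. Of these 17 list genes, Edn2 alone still passed without the 2 WT IOP libraries of highest lens share, and Serpina3n, Lcn2 and Edn2 without the 6 KO libraries of highest Spp1. The response to ONC differed for Tnc (2.91).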

How the results depend on the processing

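Of the glial transcripts, the number past both thresholds changed as follows. For KO against WT naïve it was 0, and 3 with quantile normalization, 1 with the replicate block and 2 by DESeq2. For KO against WT IOP it was 1, and 0 with the compared groups alone, 2 by DESeq2 and 0 without 2 WT IOP libraries. For WT IOP against naïve it was 1, and 2 with the compared groups alone, 2 by DESeq2 and 0 without 2 WT IOP libraries. For WT ONC against naïve it was 1, and 0 with the rod covariate. For KO IOP against naïve it was 1, and 2 with upper-quartile rescaling, 3 with quantile normalization, 2 by DESeq2, and 0 with the compared groups alone, the rod covariate or without 6 KO libraries. For KO ONC against naïve it was 5, and 4 with the compared groups alone and 2 with the rod covariate or without 6 KO libraries. For the difference of IOP responses it was 3, and 6 with quantile normalization, 7 by DESeq2, 4 with the compared groups alone, 2 with no filter, the replicate block or edgeR, and 0 with the rod covariate, without 2 WT IOP or without 6 KO libraries. For the difference of ONC responses it was 0, and 1 with quantile normalization, the rod covariate or DESeq2. The causes were not tested. With each library left out in turn the ranges were, in the same order, 0 to 2, 1 to 1, 1 to 1, 0 to 2, 0 to 2, 3 to 5, 1 to 5 and 0 to 2, and 0 to 0 for KO against WT ONC. In these settings 24 fold changes of glial transcripts were followed. They were those called or without overlap between groups in the main fit, and those of Gfap and Vim in comparisons with WT IOP. Of these 24, 0 reversed, which this choice made likely beforehand, so it says little about stability.

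Over all genes, the number past both thresholds was 70 for KO against WT naïve (14 to 536 over the planned settings, 1 to 1623 with a library left out), 360 for KO against WT IOP (156 to 940 over the planned settings, 109 to 574 with a library left out), 15 for KO against WT ONC (2 to 100 over the planned settings, 2 to 744 with a library left out), 267 for WT IOP against naïve (213 to 589 over the planned settings, 102 to 332 with a library left out), 3093 for WT ONC against naïve (1749 to 3676 over the planned settings, 1458 to 5213 with a library left out), 1347 for KO IOP against naïve (5 to 1901 over the planned settings, 92 to 3182 with a library left out), 4043 for KO ONC against naïve (481 to 4576 over the planned settings, 2798 to 5098 with a library left out), 1496 for the difference of IOP responses (150 to 2158 over the planned settings, 573 to 3074 with a library left out) and 12 for the difference of ONC responses (3 to 223 over the planned settings, 3 to 633 with a library left out). Without the 6 KO libraries it was 1, 107 and 2 for KO against WT naïve, IOP and ONC, 16 and 190 for KO IOP and ONC against naïve, and 144 and 1 for the differences of IOP and ONC responses. Without the 2 WT IOP libraries it was 15 for WT IOP against naïve, 29 for KO against WT IOP and 62 for the difference of IOP responses.

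Same-numbered replicates did not deviate together (median r of deviations 0.00465, against -0.00395 for other numbers, and 6 of 23 libraries closest to their own number), so the numbers do not pair the samples. With the replicate block 1 glial transcript passed for KO against WT naïve, in place of 0, and 2 in place of 3 for the difference of IOP responses. Depth limited Apoa2, whose normalized counts were at most 26.5, where 3 reads were worth 2.41 to 4.03.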
